A study of Mus musculus with 48 samples.

Results

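The genes described here encode the proteins of the mitochondrial ribosome. They were taken by name, as the genes whose GENCODE M21 symbol begins with Mrpl (large subunit) or Mrps (small subunit) followed by a digit. No measured value enters this rule, but the family was chosen with earlier results of these data known. Of 83 such symbols, 78 belong to protein-coding genes and 5 to processed pseudogenes (Mrpl23-ps1, Mrpl48-ps, Mrps36-ps1, Mrps36-ps2 and Mrps36-ps3), which were not analysed here. All 78 protein-coding genes, 49 Mrpl and 29 Mrps, were found among the 22055 genes of the tables, and all 78 passed the expression filters for mRNA and for footprints in every tissue. Exons of 33 of them overlap another gene, 10 over more than 20% of their bases, and since no strand setting is stated, reads in the overlap cannot be told apart. Polyadenylated RNA (RNA-seq) and ribosome-protected fragments (footprints, Ribo-seq) had been sequenced from 6 tissues (heart, kidney, liver, lung, brain and retina) of C57BL/6 wild-type mice. The stages were embryonic day 15.5, called E15.5, and postnatal day 42, called P42. Each tissue, stage and assay has 2 libraries from biological replicates, 48 libraries in all, and the p-values below measure the spread between these samples. No treatment or altered allele is named, and frozen tissue was lysed with cycloheximide, which holds ribosomes on the message. The deposited values are transcripts-per-million (TPM), which are scaled for gene length and library total, so the sequencing depth and the counting error are unknown. Each stage and assay was deposited as a separate table, and stage and table cannot be told apart.

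The tissues were checked with 4 defining genes each, or 3 in retina. In most tissue, stage and assay groups all of them were higher in their own tissue than elsewhere. The exceptions were Snap25 and Gfap in E15.5 brain RNA-seq, Gfap in E15.5 brain Ribo-seq, Syt1 in P42 brain RNA-seq, and Six2 in P42 kidney and Hnf4a in P42 liver by both assays. The listed genes summed to between 48.9% and 93.4% of the TPM scale total in RNA-seq and between 23.1% and 61.1% in Ribo-seq. The lowest RNA-seq sum was that of E15.5 kidney replicate 2. Mitochondrially encoded genes took 0.341% to 55.5% of that total in RNA-seq and 0.128% to 7.19% in Ribo-seq. In whole tissue, fewer cells of a type and less RNA per cell cannot be told apart.

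Mitochondrial ribosomes, or mitoribosomes, translate the few messenger RNAs of the mitochondrial genome, which encode core subunits of the respiratory chain and of the ATP synthase. Their ribosomal RNAs come from mitochondrial DNA, but every one of their proteins is encoded in the nucleus, made in the cytosol and imported. Part of these proteins descend from the ribosome of the bacterial ancestor and part were added in the mitochondrial lineage. Footprints on these genes therefore report the work of cytosolic ribosomes on mitoribosomal messages. Heart, kidney tubule and liver are rich in mitochondria and depend on respiration in the adult.

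Promoters of these genes are shown first, because nuclear genes for mitochondrial proteins are known for binding sites of ETS family factors such as GABP, of NRF1 and of YY1. RefSeq windows of 300 bases on GRCm38.p6, from 250 bases before to 50 after the transcription start, were found for 69 of the 78 genes, 75 windows in all because 3 genes have more than a single start. Both strands were searched for the letters CCGGAAG (ETS), GCGCANGCG (NRF1) and AAGATGGCG (YY1). The ETS letters stood in 26 of 75 windows, 34.7%, against 8.86% of all 32851 windows of the table. The NRF1 letters stood in 16 windows, 21.3% against 6.25%, and the YY1 letters in 8, 10.7% against 1.40%. At least 1 of the 3 was in 42 windows, 56.0%, against 14.8% of all windows. Matches to different motifs did not overlap, while in 3 genes a pair of NRF1 matches lay within 1 base of each other because the motif is close to its own reverse complement. The member windows also had more G and C, with a median of 58.7% against 52.7%. The GC-rich Sp1 letters GGGCGGG were in 42.7% against 25.6%. The letters CCAAT were in 40.0% against 37.4%, CACGTG in 9.33% against 7.15% and TATAAA in 6.67% against 13.6%. A match describes the letters and is not evidence of binding.

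Of the 8 YY1 matches, 6 lay on the gene's own strand between 12 and 37 bases after the start. The YY1 letters themselves contain an ATG. Of the 31 ETS matches, 26 lay within 60 bases of the start. The stretches below run 5′ to 3′ on the strand of the gene, from 100 bases before to 50 after the start (GRCm38.p6), with the matched letters in capitals. They are the promoters of genes described below: Mrpl42, with a YY1 match, Mrps18a, with an ETS and a YY1 match, Mrpl52, with a pair of ETS matches, Mrpl34 and Mrps22, with an ETS match each, Mrpl12, with an NRF1 match, and Mrps6 and Mrps15, with none of the 3.
Mrpl42, chr10:95501900-95502049 (minus strand): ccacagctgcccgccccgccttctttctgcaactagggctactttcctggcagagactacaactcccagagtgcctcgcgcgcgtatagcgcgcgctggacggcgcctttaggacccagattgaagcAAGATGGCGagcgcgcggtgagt
Mrps18a, chr17:46110904-46111053 (plus strand): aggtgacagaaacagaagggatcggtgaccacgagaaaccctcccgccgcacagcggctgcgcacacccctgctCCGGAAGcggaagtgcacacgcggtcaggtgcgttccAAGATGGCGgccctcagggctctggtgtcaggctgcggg
Mrpl52, chr14:54426809-54426958 (plus strand): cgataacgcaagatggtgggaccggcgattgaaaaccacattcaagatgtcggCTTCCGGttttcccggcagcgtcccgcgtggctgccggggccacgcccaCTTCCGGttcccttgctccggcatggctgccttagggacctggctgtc
Mrpl34, chr8:71464826-71464975 (plus strand): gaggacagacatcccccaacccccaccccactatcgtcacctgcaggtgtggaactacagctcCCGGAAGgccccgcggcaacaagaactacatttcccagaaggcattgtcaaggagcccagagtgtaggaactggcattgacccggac
Mrps22, chr9:98601630-98601779 (minus strand): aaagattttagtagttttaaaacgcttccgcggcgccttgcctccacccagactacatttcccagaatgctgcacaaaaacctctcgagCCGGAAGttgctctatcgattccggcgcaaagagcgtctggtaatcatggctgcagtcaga
Mrpl12, chr11:120484537-120484686 (plus strand): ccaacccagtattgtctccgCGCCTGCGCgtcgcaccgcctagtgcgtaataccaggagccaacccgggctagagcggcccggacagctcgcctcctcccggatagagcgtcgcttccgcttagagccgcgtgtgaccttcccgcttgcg
Mrps6, chr16:92058236-92058385 (plus strand): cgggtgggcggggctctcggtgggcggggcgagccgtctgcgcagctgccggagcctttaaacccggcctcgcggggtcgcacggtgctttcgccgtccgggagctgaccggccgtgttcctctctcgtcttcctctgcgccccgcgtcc
Mrps15, chr4:126046828-126046977 (plus strand): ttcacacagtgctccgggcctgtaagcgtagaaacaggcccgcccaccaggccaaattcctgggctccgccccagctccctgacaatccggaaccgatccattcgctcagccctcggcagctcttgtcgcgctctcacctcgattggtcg
In the first of these the YY1 letters lie 28 bases after the start. The median mRNA changes from E15.5 to P42, defined below, of members with at least 1 of the 3 motifs and of members without were 0.99 (42 genes) and 0.86 (27 genes) in heart, 1.06 and 0.85 in kidney, 1.03 and 0.98 in liver, and 0.54 and 0.37 in brain. In retina they were -0.34 and -0.23, and in lung -0.07 and -0.19. No test was made of these differences.

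All 78 genes reached 1 TPM in every RNA-seq library, and 77 or 78 did in each Ribo-seq library. Their TPM summed to between 1787 and 5683 in RNA-seq libraries and to between 932 and 4163 in Ribo-seq libraries. Mean RNA-seq levels over the 24 libraries ran from 9.17 TPM for Mrps10, a small subunit protein, to 157 TPM for Mrpl12. The latter is a large subunit protein of the stalk that also binds the mitochondrial RNA polymerase. Mrpl34 (151 TPM), Mrps21 (140), Mrpl54 (119) and Mrpl28 (103) followed Mrpl12. Mrpl23 (10.1 TPM), Mrpl33 (11.2), Mrps35 (11.9) and Mrpl1 (13.8) followed Mrps10 at the low end. TPM is per length, but the length used for each gene is not stated. Merged exons span 8079 bases in Mrps10, 7326 in Mrpl33 and 4883 in Mrpl23. They span 1532 in Mrpl12, 607 in Mrpl34 and 739 in Mrps21. The part of annotated length in this order was not tested, so levels of different genes compare only roughly.

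As a share of the listed TPM without mitochondrially encoded genes, the 78 genes took 1.07% ± 0.00339 (SD, n = 2) of P42 heart RNA-seq and 0.776% ± 0.0112 of E15.5 heart. In kidney the share was 0.671% ± 0.000455 at E15.5 and 0.770% ± 0.0455 at P42, and in brain 0.512% ± 0.00471 and 0.572% ± 0.00369. Heart, kidney and brain were thus higher at P42, with no overlap between the stages. Liver was at 0.394% ± 0.0140 and 0.399% ± 0.0260, a difference within the spread of the replicates. In retina the share went from 0.584% ± 0.0407 to 0.473% ± 0.0543, and in lung from 0.583% ± 0.00723 to 0.245% ± 0.0337. By Ribo-seq the mean share was lower at P42 in all 6 tissues, as in heart (0.817% ± 0.05 to 0.735% ± 0.0276), kidney (0.667% ± 0.000793 to 0.513% ± 0.0106) and lung (0.610% ± 0.00324 to 0.206% ± 0.0158). Liver footprints went from 0.376% ± 0.00664 to 0.239% ± 0.0148. With 2 libraries a group, no exact permutation test of a single tissue can pass a threshold of 0.05.

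**Figure D1:**
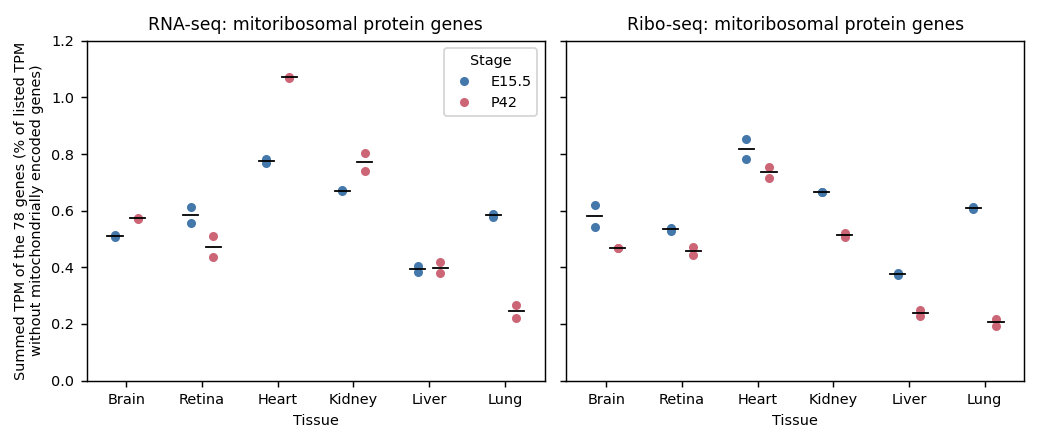
Summed TPM of the 78 genes as a percentage of the listed TPM without mitochondrially encoded genes, by tissue, for RNA-seq (left) and Ribo-seq (right). Each point is a library, bars are means of 2 libraries, and colours are stages. P42 heart RNA-seq stands highest at 1.07%, and P42 lung is low by both assays.

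Stage changes were tested on log2(TPM + 1), a scale that understates changes of low genes. The median gene itself fell between E15.5 and P42, with log2 changes by mRNA of -1.61 in heart, -0.81 in kidney, -0.89 in liver, -1.11 in lung, -0.60 in brain and -0.23 in retina. By footprint the median gene moved by -1.01, -0.74, -0.85, -0.21, -0.01 and 0.08 in the same order. All changes given below are therefore relative: the change of the gene minus that of the median gene of the tissue. A gene was called higher or lower at an adjusted p below 0.05 with a relative change of at least 0.5 in size. In each tissue the share of all genes called is high, and the counts of members are to be read against it.

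By mRNA, most mitoribosomal protein genes rose relative to the median gene in heart, kidney and liver, and 41 of 78 did in brain, although their TPM as deposited fell in heart and, with the listed genes set to an equal sum, their medians were below 0 in all 6 tissues. In heart 66 of 78 were called higher and 0 lower, against 28.2% and 27.0% of 12780 genes, and the members' median relative change was 0.97. The kidney counts were 67 higher and 0 lower, against 34.8% and 33.6%, with a median of 1.04. In liver 64 were higher and 1 lower, against 36.5% and 35.5%, with a median of 1.01. In brain 41 were higher and 1 lower, against 33.0% and 31.7%, with a median of 0.53. Without any 1 library fewer members were called higher in brain, while their median lay between 0.50 and 0.54. Retina had 5 higher and 23 lower (33.4% and 32.1% of all genes, median -0.25) and lung 7 higher and 22 lower (34.1% and 31.3%, median -0.19). In retina and lung the share called lower was below that of all genes. The median over all genes tested is 0 by construction.

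The direction of these counts depends on the scale. The shares of all genes called on the scales without centring were not counted, here or below. Counts on those scales therefore have no share beside them and do not give a direction relative to the other genes. In heart the median gene itself moved by -1.61 on the deposited scale. On the deposited TPM without centring, heart had 0 higher and 51 lower (median -0.64), kidney 22 and 8 (0.23), liver 20 and 10 (0.12), brain 7 and 13 (-0.08), retina 3 and 38 (-0.48) and lung 0 and 74 (-1.29). Median-of-ratios scaling without centring gave 71 and 0 in heart, 69 and 0 in kidney, 70 and 0 in liver, 52 and 0 in brain, 7 and 18 in retina, and 11 and 14 in lung. Mitochondrially encoded messages went from 14.8% to 54.9% of the TPM total in heart RNA-seq, from 6.02% to 21.1% in kidney, and from 0.600% to 10.7% in liver. With those genes left out, the heart median was 1.16. With the listed genes of each library set to an equal sum and no centring, the medians were -0.83 in heart, -0.26 in kidney, -0.27 in liver, -0.13 in brain, -0.50 in retina and -1.40 in lung. That sum includes the mitochondrially encoded genes. The members' summed share without those genes, given above, was higher at P42 in heart, kidney and brain. It was close to level in liver and lower in retina and lung. With no filter on low values the centre itself moves, and the medians were 0.46 in liver, 0.58 in kidney, 0.28 in heart and 0.13 in brain.

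**Figure D2:**
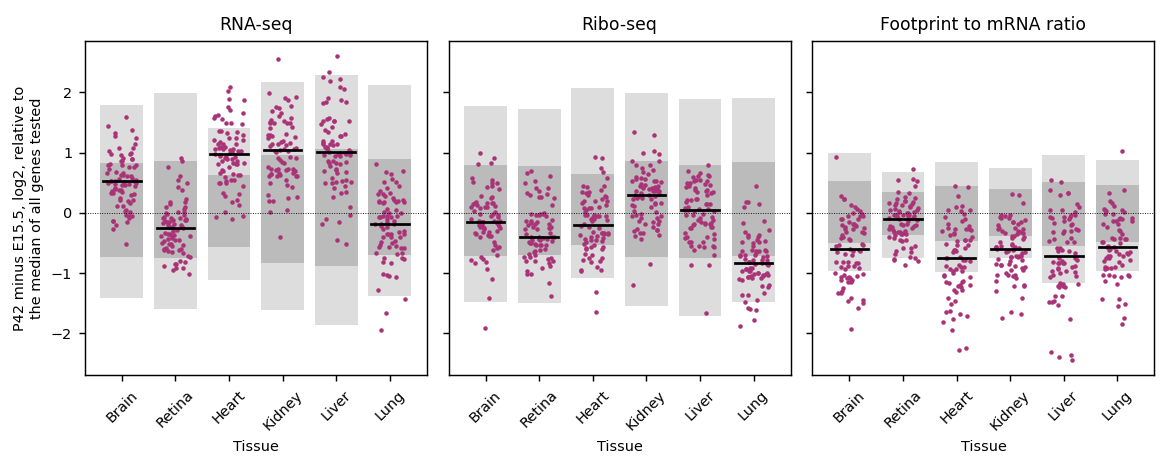
Change from E15.5 to P42 of each of the 78 genes (points) by tissue, relative to the median of all genes tested, on the log2(TPM + 1) scale, for RNA-seq (left), Ribo-seq (middle) and the footprint to mRNA ratio (right). Black bars are medians over the genes, and dark and light grey bands are the interquartile and interdecile ranges of all genes tested. The RNA-seq medians of heart, kidney and liver lie near 1 above the median gene. The deposited scale, on which the median gene of heart itself moved by -1.61, reverses this direction in heart. An equal sum of the listed genes, mitochondrially encoded ones included, reverses it in all 3.

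Individual genes differed in where they rose. Mrps6 (chromosome 16, 92058270 to 92112227, plus strand; 19.9% of its exon bases overlap Gm49711 and Slc5a3), a small subunit protein with a bacterial homologue, was in kidney RNA-seq at 77.0 and 45.4 TPM at E15.5 and at 194 and 206 TPM at P42. Both P42 values lay above both E15.5 values. Its relative change in kidney was 2.55 (SE 0.20, adjusted p = 9.43e-11), the largest among the members there, and it was 0.55 in heart, 1.15 in liver and -0.04 in brain, the last not called. Slc5a3, an osmolyte transporter gene of the kidney, shares exon bases with Mrps6, and their reads cannot be told apart there. Mrps36 rose by 1.98 (SE 0.20) and Mrpl12 by 1.92 (SE 0.23, adjusted p = 1.82e-07) in kidney. The E15.5 kidney replicate 2, whose listed genes sum low, gave lower values than replicate 1, and without it the kidney count was again 67 higher, with a median of 0.97. Kidney RNA-seq also held markers of other cells at E15.5. The 4 adrenal marker genes (Cyp11a1, Cyp11b1, Hsd3b1 and Star) summed to 402 to 697 TPM in the E15.5 libraries and to 1.63 to 1.97 TPM at P42, and 5 erythroid marker genes, named below, to 1633 to 2773 TPM and 153 to 322 TPM. By Ribo-seq the adrenal sums in kidney were 424 to 434 TPM and 2.19 to 3.09 TPM. The part of either in the kidney changes was not tested.

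Mrpl42 (chromosome 10, 95480805 to 95501940, minus strand), a large subunit protein without a bacterial homologue, led in heart together with Mrpl55 and Mrpl14. It was at 134 and 126 TPM in E15.5 heart and at 182 and 163 TPM in P42 heart by RNA-seq, a relative change of 2.02 (SE 0.19, adjusted p = 1.18e-08). The stages did not overlap, although the TPM itself rose by less than the relative change, since the median gene of heart fell. Mrpl55 rose by 2.09 (SE 0.20) and Mrpl14 by 1.88 (SE 0.23). In liver Mrpl42 was at 14.8 and 10.7 TPM at E15.5 and at 38.4 and 34.1 TPM at P42 (2.34, SE 0.19, adjusted p = 3.09e-10).

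Mrps15 (chromosome 4, 126046925 to 126055532, plus strand), a small subunit protein with a bacterial homologue, showed the largest relative rise of any member in any tissue, in liver. Its RNA-seq values there were 17.9 and 18.5 TPM at E15.5 and 63.7 and 60.3 TPM at P42 (2.60, SE 0.18, adjusted p = 8.96e-12). E15.5 liver stood apart from the other tissues of that stage, in which the lowest RNA-seq library of Mrps15 was at 67.5 TPM. In liver Mrpl38 followed Mrpl42 (2.25, SE 0.20), from 21.4 and 23.4 to 60.2 and 58.5 TPM. The only member called lower by mRNA in liver was Mrpl3 (-0.51, SE 0.19, adjusted p = 0.0168), and that call was lost without any 1 of 3 of the 4 libraries. E15.5 liver is a site of blood formation, and 5 erythroid marker genes (Alas2, Klf1, Hba-a1, Hbb-bt and Epor) summed there to 24867 to 28438 TPM at E15.5 and to 197 to 287 TPM at P42. In heart RNA-seq they summed to 2024 to 2588 TPM and 195 to 580 TPM, in brain to 1937 to 1955 TPM and 72.7 to 116 TPM, and in lung to 1412 to 1517 TPM and 1358 to 1666 TPM. Marker genes of dividing cells (Top2a, Mki67, Ccnb1 and Cdk1) summed to 137 to 1289 TPM over the E15.5 RNA-seq libraries of all tissues and to 0.301 to 12.7 TPM at P42. The part of either, or of the muscle genes found in E15.5 liver RNA-seq, in these changes was not tested.

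In brain the largest relative rises were those of Mrps12 (1.59, SE 0.25, adjusted p = 6.18e-06), Mrps36 (1.44, SE 0.20) and Mrpl48 (1.37, SE 0.20). Mrps12, a protein of the decoding centre of the small subunit, went from 61.8 and 67.7 to 124 and 134 TPM. Both P42 libraries were higher than both E15.5 libraries. Mrps36 and Mrpl48 have processed pseudogenes, so part of their reads may be shared with copies. Mrps5 was the only member called lower in brain (-0.52, SE 0.20, adjusted p = 0.0243), from 28.1 and 29.0 to 12.6 and 12.6 TPM, and that call was lost without any 1 of the 4 libraries.

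In retina Mrpl18, a large subunit protein, fell the most, from 128 and 141 to 49.4 and 64.0 TPM (-1.01, SE 0.20, adjusted p = 0.000118). Mrpl13 (-0.95, SE 0.19) and Mrpl50 (-0.91, SE 0.21) followed it. Mrps34 (0.92), Mrpl48 (0.85) and Mrpl49 (0.76) were called higher in retina. The exons of Mrps34 overlap Mapk8ip3 on the other strand and Nme3 over 77.8% of their bases. The retina count of 23 lower was 11 without P42 replicate 1 and 15 without E15.5 replicate 1.

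In lung Mrps22 (chromosome 9, 98588730 to 98601660, minus strand), a small subunit protein without a bacterial homologue, fell the most of all members in any tissue. Its RNA-seq values were 20.4 and 21.1 TPM at E15.5 and 1.82 and 1.41 TPM at P42 (-1.95, SE 0.21, adjusted p = 2.92e-08), while in the other tissues its P42 libraries lay between 4.53 and 15.4 TPM. Mrps27 (-1.67, SE 0.20; 24.2% of its exon bases overlap the antisense gene 6430562O15Rik) went from 62.7 and 56.3 to 9.17 and 6.66 TPM. Mrpl16 (-1.42, SE 0.21) went from 56.8 and 61.9 to 10.7 and 8.32 TPM. In each of the 3 genes both P42 lung libraries were far below both E15.5 libraries. The genes called higher in lung, led by Mrpl43 (0.80), Mrpl24 (0.70) and Mrpl4 (0.68), were lower on the deposited scale (-0.31, -0.41 and -0.43) and with listed genes at an equal sum (-0.41, -0.52 and -0.54). The lung counts of 7 higher and 22 lower were 2 higher without P42 replicate 2, 3 higher without E15.5 replicate 2 and 14 lower without E15.5 replicate 1.

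Over the 6 tissues, 23 members were called higher by mRNA in 3, 32 in 4 and 6 in 5. Between 28.2% and 36.5% of all genes were called higher in a tissue. In how many tissues the other genes were called was not counted, here or for footprints and efficiency below, so such counts have no share beside them. Mrpl4, a large subunit protein with a bacterial homologue, was the only member called higher in all 6, with relative changes from 0.61 in retina to 1.87 in kidney. On the deposited scale its changes in heart, liver and lung were below 0 (-0.25, -0.02 and -0.43). The members called higher in no tissue were Mrpl19, Mrps17, Mrps22, Mrps25 and Mrps27.

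**Figure D3:**
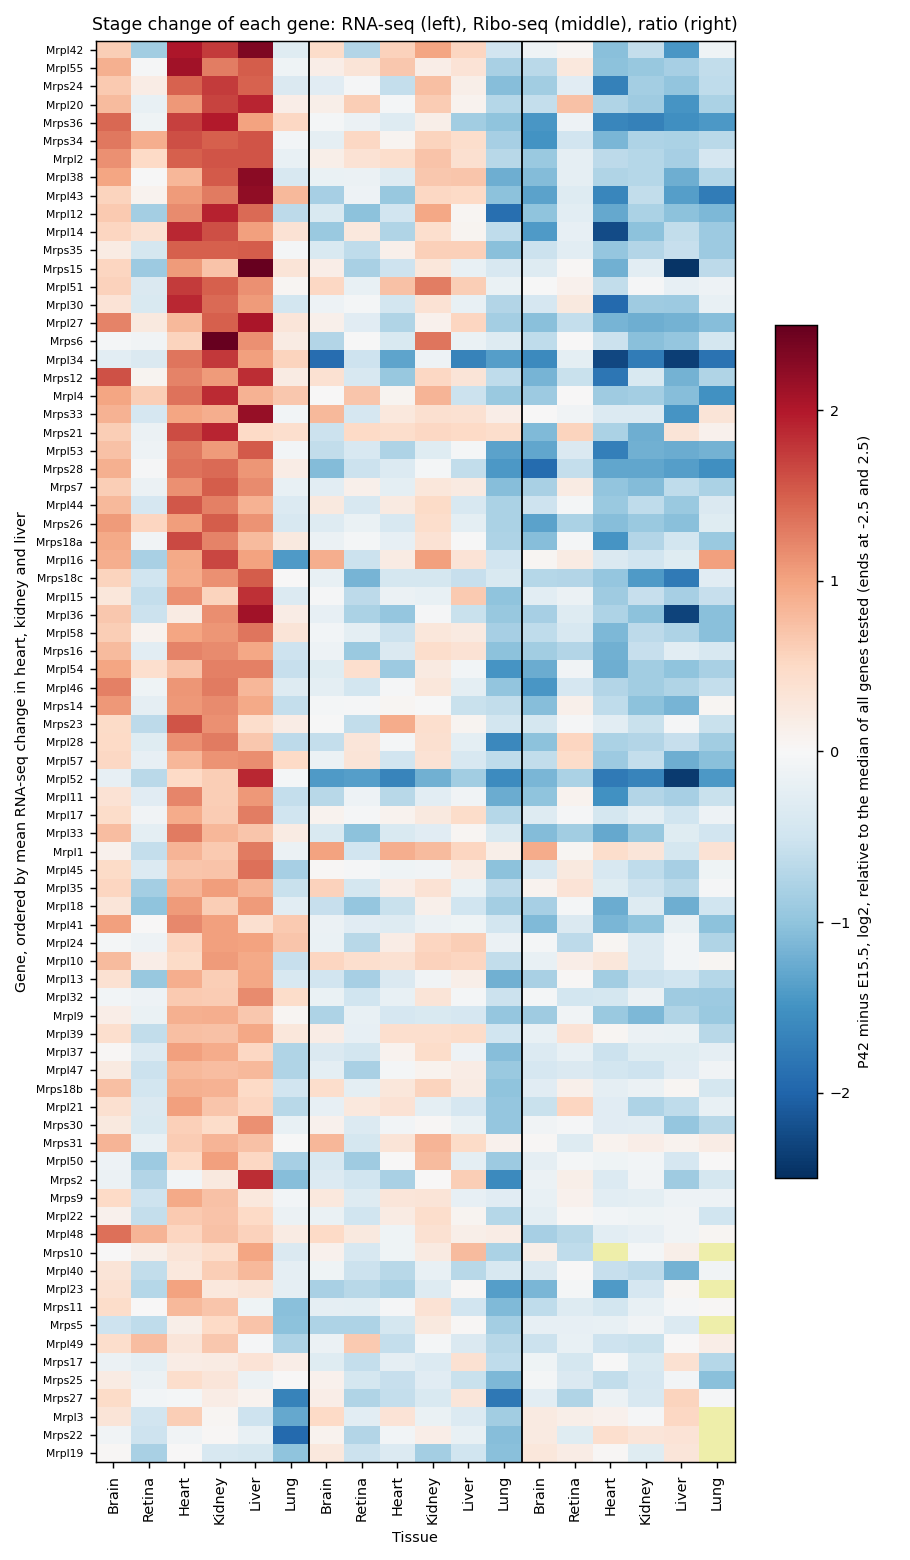
Relative change from E15.5 to P42 (log2, colour scale ending at -2.5 and 2.5) of each of the 78 genes in rows, by tissue in columns, for RNA-seq (left), Ribo-seq (middle) and the footprint to mRNA ratio (right). Rows are ordered by the mean RNA-seq change in heart, kidney and liver, and yellow cells were not tested. RNA-seq columns of heart, kidney and liver are mostly above 0, and the ratio columns mostly below 0 except in retina, both relative to the median gene. With the listed genes at an equal sum the RNA-seq medians of these 3 tissues and the heart ratio median change sign, as do the heart RNA-seq and lung ratio medians on the deposited scale.

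By footprint, few members were called higher in any tissue, and in lung most were called lower. In heart 3 of 78 members were called higher and 15 lower by footprint, against 26.7% and 22.6% of 12521 genes, with a median relative change of -0.20. In kidney 15 were higher and 2 lower (31.9% and 29.8% of all genes, median 0.30), in liver 7 and 5 (30.5% and 29.8%, median 0.05), and in brain 5 and 8 (30.3% and 29.0%, median -0.15). These counts are below the shares called among all genes in both directions. Retina had 2 higher and 20 lower (30.5% and 28.7%, median -0.40), again below the shares of all genes. In lung 0 were higher and 56 lower (31.9% and 29.5%, median -0.84), and it was the only tissue in which most members were called lower by footprint. The lung result was also found on the deposited scale (0 and 67) and with median-of-ratios scaling (1 and 52). Median-of-ratios scaling moved the balance in heart to 16 higher and 9 lower, in kidney to 36 and 2 and in liver to 29 and 4, while the deposited scale gave 0 and 73 in heart, 1 and 28 in kidney and 0 and 51 in liver. The heart count of 15 lower was 3 without P42 replicate 2, 4 without E15.5 replicate 1 and 8 without P42 replicate 1. The kidney count of 15 higher was 7 to 9 without either E15.5 replicate or P42 replicate 1, the liver count of 7 higher was 2 to 4 without either E15.5 replicate or P42 replicate 2, the brain count of 8 lower was 5 to 14 without any 1 library, and the retina count of 20 lower was 10 without P42 replicate 2.

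Mrps6 also rose in kidney by footprint, from 50.8 and 47.3 to 80.7 and 70.0 TPM (1.34, SE 0.21, adjusted p = 2.61e-05). Mrpl42 footprints in heart went from 31.0 and 29.1 to 23.6 and 20.4 TPM, a relative change of 0.58 (adjusted p = 0.0172). Mrps15 footprints in liver went from 49.0 and 46.7 to 18.9 and 27.8 TPM, the direction opposite to its mRNA, with a relative change of -0.18 that was not called. Mrps22 footprints in lung went from 17.3 and 17.1 to 6.62 and 6.52 TPM (-1.06, adjusted p = 0.000157). Mrpl52, a mitochondria-specific protein of the large subunit, was the only member whose footprints were called lower in all 6 tissues, with relative changes from -1.65 in heart to -0.86 in liver. In heart its footprints were at 191 and 152 TPM at E15.5 and at 24.9 and 27.3 TPM at P42, with all E15.5 values above all P42 values.

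**Figure D4:**
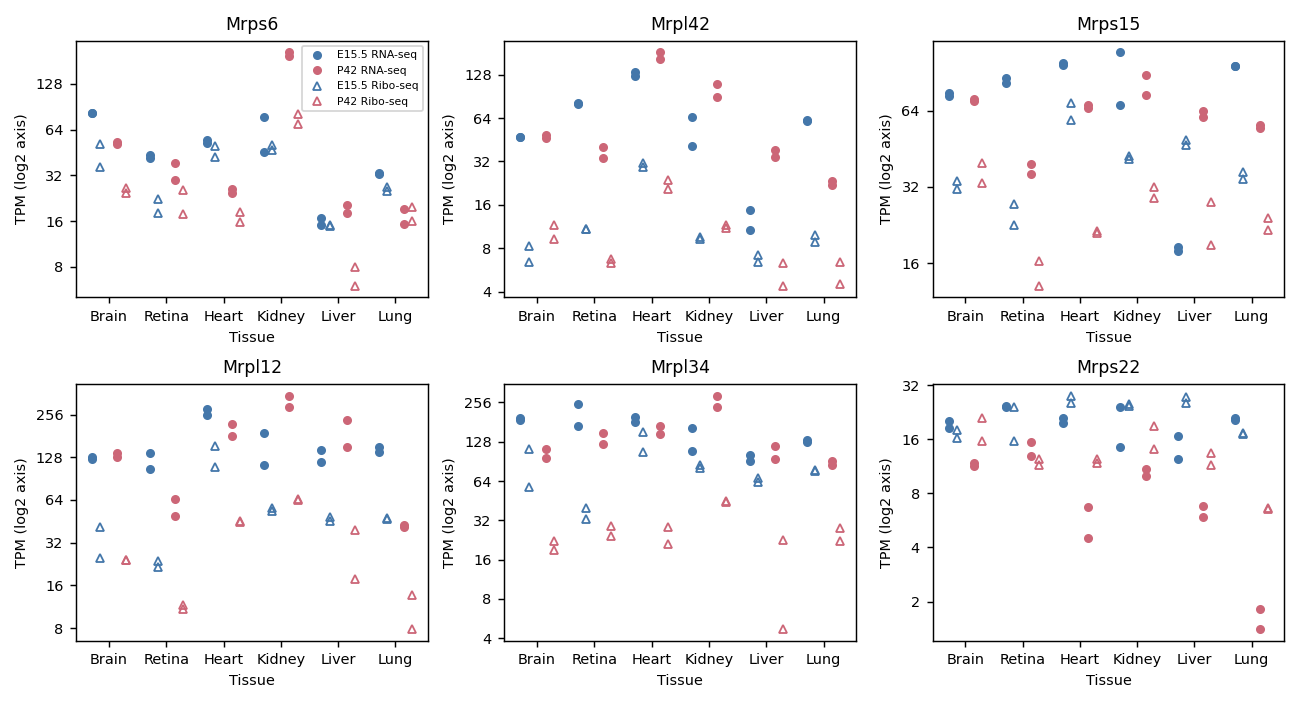
TPM on a log2 axis in each library of Mrps6, Mrpl42, Mrps15, Mrpl12, Mrpl34 and Mrps22, by tissue. Filled circles are RNA-seq, open triangles Ribo-seq, and colours are stages, with 2 libraries in each. Kidney Mrps6 rises by both assays, liver Mrps15 rises by RNA-seq from 17.9 and 18.5 TPM while its footprints fall, and lung Mrps22 falls to 1.82 and 1.41 TPM by RNA-seq.

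The footprint to mRNA ratio, or translational efficiency, was tested as the difference between the footprint change and the mRNA change in a model over both assays, again relative to the median gene. Relative to the median gene it fell for part of the members in all tissues but retina, and 1 call in 1 tissue was in the other direction, but with the listed genes at an equal sum the heart direction turned and on the deposited scale the lung direction did. In liver 0 of 78 were higher and 33 lower, against 14.7% and 15.3% of 6327 genes, with a median of -0.71. In heart 0 of 77 were higher and 28 lower (8.97% and 9.44%, median -0.75), in brain 0 of 78 and 23 (15.8% and 11.6%, median -0.61), in lung 1 of 72 and 16 (10.4% and 10.9%, median -0.57) and in kidney 0 of 78 and 11 (3.90% and 3.94%, median -0.60). In retina 0 of 78 were called in either direction by limma (4.21% and 6.87%, median -0.10), against 2 higher and 6 lower with median-of-ratios scaling. On the deposited scale the lower counts were 44 in liver, 23 in heart and 14 in kidney, but 3 in brain with 5 higher, and 0 in lung with 17 higher (median 0.25). With the listed genes at an equal sum and no centring, heart had 31 higher and 7 lower, and its median turned to 0.31. The same setting gave 4 and 34 in liver, 1 and 14 in kidney, 3 and 16 in lung, 6 and 19 in brain, and 9 and 1 in retina. Median-of-ratios scaling raised the lower counts to 70 in heart, 55 in liver, 45 in kidney and in brain, and 42 in lung. Leaving out 1 library moved the count called lower by over 1.5 times in 7 of 8 cases in brain (lowest 7, without E15.5 Ribo-seq replicate 1), 4 in heart (14, without E15.5 Ribo-seq replicate 1), 5 in kidney (2, without P42 RNA-seq replicate 1), 4 in liver (19) and 5 in lung (8), each time down.

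Mrpl34, Mrpl52, Mrps28, Mrps36 and Mrpl27 were called lower in efficiency in 5 tissues each, all but retina, a count not made over all genes. Mrpl34 (chromosome 8, 71464959 to 71465747, plus strand), a short large subunit protein with a bacterial homologue, was at 90.5 and 101 TPM by RNA-seq in E15.5 liver and at 94.7 and 119 TPM at P42. Its liver footprints were at 62.8 and 67.4 TPM at E15.5 and at 4.71 and 22.5 TPM at P42, so the RNA-seq values of the stages lay close together while the footprints did not overlap, and the P42 footprint replicates differed widely. Its relative efficiency change was -2.36 in liver, -2.27 in heart (SE 0.50, adjusted p = 0.00237), -1.84 in lung, -1.74 in kidney and -1.59 in brain. The brain call of Mrpl34 was lost without 4 of the 8 libraries and the kidney call without 6 of 8. In brain Mrps28 fell further (-1.93, SE 0.38, adjusted p = 0.000447), and its footprints went from 79.5 and 35.9 to 25.1 and 23.8 TPM.

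In liver Mrps15 fell the most in efficiency of all members and tissues (-2.45, SE 0.25, adjusted p = 1.41e-08), followed by Mrpl52 (-2.40, SE 0.31, adjusted p = 7.15e-07). Mrpl52 (chromosome 14, 54426909 to 54429756, plus strand) was at 52.8 and 48 TPM in E15.5 liver and at 96.1 and 106 TPM in P42 liver by RNA-seq, and its footprints at 131 and 123 and at 31.9 and 45.3 TPM. Its mRNA was higher and its footprints lower at P42, with no overlap in either assay. In heart Mrpl14 (-2.25, SE 0.49) followed Mrpl34, with its E15.5 heart footprints far apart at 164 and 74.8 TPM. In kidney Mrps36 (-1.68, SE 0.30) and in lung Mrpl43 (-1.74, SE 0.43; 33.4% of its exon bases overlap Twnk on the other strand) were the other genes with the largest falls. Mrpl16 in lung was the only member called higher in efficiency (1.03, SE 0.33, adjusted p = 0.0235), and that call was lost without 5 of the 8 libraries.

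Efficiency changes went with coding length. The coding sequences of the 78 genes have a median length of 582 bases, from 195 to 1326, and all 78 lie below the median of 1356 bases of genes with a mean of 5 TPM by RNA-seq. Among the other genes, those in the shortest quintile of coding length also fell in efficiency, with medians of -0.38 in heart, -0.37 in kidney, -0.61 in liver, -0.42 in lung and -0.50 in brain, and 0.04 in retina. The longest quintile had medians of 0.37, 0.34, 0.55, 0.42 and 0.52 in those 5 tissues and -0.09 in retina. By mRNA the order was the opposite, for example 0.35 in the shortest and -0.44 in the longest quintile of other genes in brain, and 0.62 and -0.70 in liver. Footprint medians of these quintiles lay closer together, at -0.13 and 0.03 in brain, -0.10 and 0.04 in heart, and 0.02 and -0.20 in kidney. They were 0.05 and -0.18 in liver, and -0.12 and 0.09 in lung. Efficiency is the footprint change minus the mRNA change, so the mRNA order enters it with the sign turned. The members in the shortest quintile had median efficiency changes of -0.82 in brain, -1.03 in heart, -0.69 in kidney, -0.90 in liver, -0.63 in lung and -0.19 in retina, below the other genes of that quintile in each tissue.

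With changes centred on the median gene of the same decile of coding length, an alternative chosen after seeing the data, the members' efficiency medians were -0.21 in brain, -0.49 in heart, -0.31 in kidney, -0.32 in liver, -0.22 in lung and -0.13 in retina. The counts called lower were then 4, 12, 2, 7, 4 and 0. By mRNA the medians became 0.71 in heart with 53 higher and 0 lower, 0.68 in kidney with 47 and 1, 0.47 in liver with 34 and 5, and 0.22 in brain with 20 and 5. Lung became -0.41 with 0 and 36, and retina -0.24 with 5 and 25.

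**Figure D5:**
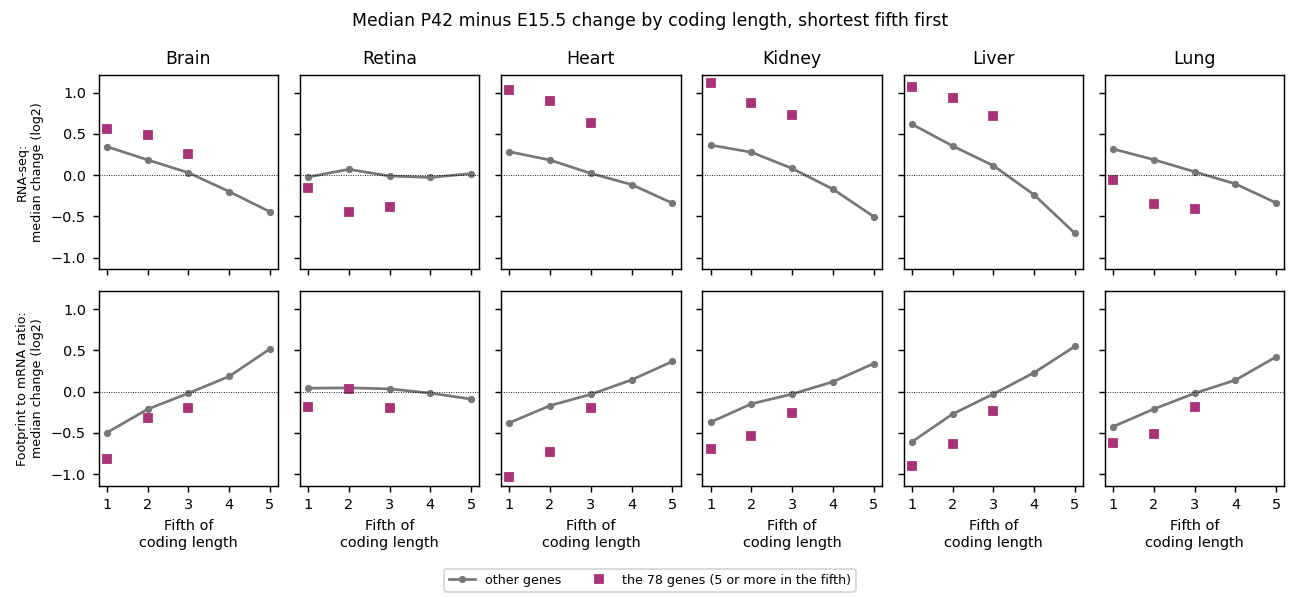
Median change from E15.5 to P42 (log2, relative to the median of all genes tested) by quintile of coding length, shortest first, for RNA-seq (top) and the footprint to mRNA ratio (bottom) in each tissue. Grey points and lines are the other genes, squares the mitoribosomal protein genes in quintiles that hold 5 or more of them. In 5 of the tissues the ratio of the other genes goes from below 0 in the shortest quintile to above 0 in the longest, and the members lie in the short quintiles.

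As a level over all libraries, the mean log2 ratio of footprint to mRNA TPM had a median of -0.98 over the 78 genes and of -0.88 over 13012 genes with a mean of 5 TPM by RNA-seq. It was lowest for Mrpl42 (-2.33), Mrpl30 (-2.19), Mrps25 (-2.18; 69.8% of its exon bases overlap Nr2c2 on the other strand), Mrpl51 (-2.11) and Mrps2 (-1.98). It was highest for Mrps22 (0.44), Mrps28 (0.22), Mrps31 (0.01), Mrpl16 (-0.00) and Mrps18c (-0.03). Across the 78 genes the ratio correlated with coding length with a Pearson's r of 0.28 on the log2 scale and a Spearman's rank correlation of 0.31. These points share their libraries, and the value is a description.

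Large and small subunit genes had close mRNA medians in heart, kidney and liver and lay further apart in efficiency. Of 51 large subunit genes, a list that includes Mrps18a and Mrps30 because their proteins sit in the large subunit, 45 were higher by mRNA in liver, 47 in kidney, 46 in heart and 25 in brain. Of 26 small subunit genes 18, 19, 19 and 15 were, against 36.5%, 34.8%, 28.2% and 33.0% of all genes. Mrps36 was placed in neither list. The medians of large and small subunit genes were 0.95 and 0.96 in heart, 1.03 and 0.98 in kidney, and 1.02 and 0.97 in liver. In brain they were 0.49 and 0.55, in retina -0.34 and -0.21, and in lung -0.22 and -0.067. The efficiency medians of large and small subunit genes were -0.75 and -0.46 in liver, -0.63 and -0.41 in kidney, -0.78 and -0.62 in heart, -0.61 and -0.43 in lung, -0.62 and -0.49 in brain, and -0.053 and -0.30 in retina. Liver footprint medians were -0.017 and 0.18. These differences were not tested. The summed TPM of large subunit genes was 2.22 to 2.68 times that of small subunit genes in RNA-seq libraries and 1.92 to 2.44 times in Ribo-seq libraries. Genes with a bacterial homologue and genes of mitochondria-specific proteins had mRNA medians of 0.98 (44 genes) and 0.90 (33 genes) in heart, 1.04 and 1.02 in kidney, and 1.02 and 0.97 in liver. In lung footprints 31 of 44 and 24 of 33 were lower, against 29.5% of all genes.

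Some members have roles beside the ribosome core. Mrpl12, also named above, was at 191 and 112 TPM in E15.5 kidney and at 348 and 290 TPM in P42 kidney, and its kidney footprints rose as well (0.97, adjusted p = 0.00933). In retina it fell by 0.84 by mRNA and in lung by 0.66, with values there of -0.84 and -0.66, and its lung footprints changed by -1.88. Mrpl45, which tethers the ribosome to the inner membrane, was called higher by mRNA in heart (0.69), kidney (0.71) and liver (1.37) and lower in lung (-0.82). Mrpl58, a peptidyl-tRNA hydrolase that frees stalled chains, was higher in brain (0.62), heart (0.99), kidney (1.11) and liver (1.34), with retina at 0.09 and lung at 0.32. Its efficiency fell in heart (-1.13), liver (-0.78) and lung (-1.05).

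Mrps18a, Mrps18b and Mrps18c are paralogs of the bacterial protein S18, the first placed in the large subunit. By mRNA Mrps18a rose by 1.65 in heart, 1.24 in kidney, 0.95 in brain and 0.78 in liver. Mrps18c rose by 1.52 in liver, 1.14 in kidney, 0.92 in heart and 0.56 in brain, and Mrps18b by 0.90, 0.88 and 0.76 in heart, kidney and brain, with 0.49 in liver under the size minimum. The exons of Mrps18b overlap Gm16279 over 30.5% of their bases and those of Mrps18c overlap Gm43511 over 23.2%. Mrps30, a large subunit protein despite its name, rose in liver (1.15) and heart (0.60) and was at 0.46 in kidney. Mrps36, whose protein is now regarded as a part of the 2-oxoglutarate dehydrogenase complex, went from 49.9 and 29.3 to 98.4 and 78.2 TPM in kidney RNA-seq and from 19.1 and 20.5 to 15.1 and 10.8 TPM in kidney footprints. Its mRNA rose in all tissues but retina (-0.11), from 0.52 in lung to 1.98 in kidney.

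The genes that work with the mitoribosome were taken from lists, and their counts are to be read against the shares of all genes called by mRNA, which were 28.2% higher and 27.0% lower in heart, 34.8% and 33.6% in kidney, 36.5% and 35.5% in liver, 33.0% and 31.7% in brain, 33.4% and 32.1% in retina, and 34.1% and 31.3% in lung. All 5 other mitoribosome proteins (Dap3, Chchd1, Aurkaip1, Ptcd3 and Gadd45gip1) rose by mRNA in heart, and 3 in liver, 4 in kidney and 2 in brain did, with 0 lower in these 4 tissues, while 1 was higher and 3 lower in lung (median -0.72) and 0 and 1 in retina. Of 11 mitochondrial translation factors, 8 were higher in kidney, 6 in liver and 4 in heart, with 0 lower in each. In lung and in retina 0 were higher and 4 lower, and in brain 2 and 1. The elongation factor gene Tufm rose by 1.19 in heart and 1.44 in kidney and changed by -1.55 in lung, and Gfm2, a factor of ribosome recycling, rose by 2.25 in kidney. By footprint 9 of the 11 translation factors were called higher in kidney (median 0.89), against 31.9% of all genes.

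Of 24 assembly factor genes 14 rose and 1 fell in heart, 12 and 1 did in kidney, and 13 and 3 in liver. In brain 8 rose and 4 fell, in retina 6 and 7, and in lung 3 and 11 (median -0.42). Mpv17l2 rose in all 6 tissues, by 0.86 in heart to 2.76 in lung. Malsu1, which binds the large subunit during assembly, fell in retina (-2.0), lung (-1.99), brain (-1.16) and kidney (-0.79), rose in liver (1.06) and was at -0.48 in heart, not called.

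Messages of the 13 mitochondrially encoded genes, which the mitoribosome translates, rose by mRNA for 13 in heart, kidney and brain, 12 in liver and 11 in retina and lung, with medians of 3.53, 2.73, 2.55, 5.33, 1.52 and 1.70. These medians exceed the members' in each tissue. Of 10 genes of mitochondrial content, among them the citrate synthase gene Cs and the porin gene Vdac1, 8 rose in kidney, 5 in liver, 4 in heart and 2 in brain and in retina, and 1 fell in liver, 3 in retina and 7 in lung. Of 77 cytosolic ribosomal protein genes, 7 were higher and 1 lower by mRNA in heart, 0 and 14 in kidney, 24 and 12 in liver, 1 and 21 in brain, 1 and 34 in lung, and 0 and 76 in retina. Only the lower counts of retina and lung exceed the shares of all genes. By footprint 70 to 76 of them were lower in every tissue, against 22.6% to 29.8% of all genes. Their efficiency was lower for 77 in liver (15.3% of all genes), 70 in heart (9.44%) and 61 in lung (10.9%). It was lower for 58 in kidney (3.94%) and 46 in brain (11.6%). In retina 4 were higher and 4 lower in efficiency (4.21% and 6.87%). No test was made of the difference between the lists.

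Between tissues of a stage, each tissue was compared with the mean of the other 5, again relative to the median gene. At P42 members were high by mRNA in heart, kidney and liver and low in lung and retina. In heart 63 of 78 were higher and 0 lower, against 30.0% and 26.4% of 17171 genes. In kidney 60 were higher and 0 lower (27.6% and 25.4%), in liver 51 and 1 (28.6% and 30.1%) and in brain 11 and 7 (33.5% and 30.2%). In retina 1 was higher and 54 lower (36.4% and 38.0%), and in lung 0 and 63 (30.6% and 29.1%). On the deposited scale kidney had 52 and 0, lung 0 and 63, and brain 25 and 1. Heart had 12 and 24, liver 11 and 14, and retina 16 and 6. The direction of the counts thus turned in heart, liver and retina, where the median gene itself stood at -1.12, -0.74 and 0.88. Median-of-ratios scaling gave 70 and 0 in heart, 34 and 0 in kidney, 60 and 0 in liver, 4 and 31 in brain, 1 and 70 in retina, and 0 and 70 in lung.

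At E15.5 the tissues were closer to each other. Heart had 46 higher and 0 lower (24% and 21.6% of all genes), liver 6 and 11 (31.8% and 32.7%), brain 3 and 15 (30.7% and 28.2%), and retina 3 and 5 (25.2% and 30.6%). In kidney 1 was higher and 0 lower (16.6% and 13.8%) and in lung 0 and 3 (19.5% and 21.3%). The deposited scale gave 17 and 0 in heart, 2 and 50 in liver, 8 and 3 in brain, 21 and 3 in retina, 1 and 0 in kidney, and 5 and 0 in lung.

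Mrpl42 stood out in heart at both stages, by 1.97 at E15.5 and 3.11 at P42 (SE 0.15, adjusted p = 5.23e-14). Its P42 heart libraries, at 182 and 163 TPM, were above all others of that stage, of which the highest was kidney at 111 TPM. Mrps23 followed in heart at P42 (2.33, SE 0.15), and Mrps36 at E15.5 (1.48, SE 0.16). Mrps6, which shares exon bases with Slc5a3, stood out in kidney, by 0.62 at E15.5 and 2.90 at P42 (SE 0.15, adjusted p = 8.17e-14). At P42 its kidney libraries at 194 and 206 TPM compare with 53.0 TPM in the highest library of another tissue, brain. At E15.5 it was highest in brain (82.1 and 82.3 TPM; 0.90) and low in lung (-0.69).

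Mrpl12 at P42 was high in kidney (1.67, SE 0.18) and low in retina (-2.23, SE 0.18, adjusted p = 1.19e-10), where it was at 49.3 and 65.5 TPM. Liver was high in Mrps18b at both stages (1.27 and 1.51) and in Mrpl15 at P42 (1.75) and Mrpl14 at E15.5 (1.33). E15.5 liver was low in Mrpl42 (-1.70, SE 0.15) and Mrps15 (-1.53, SE 0.14), the genes with the largest liver rises, and P42 liver in Mrps36 (-0.61). P42 lung was low in Mrpl16 (-2.29, SE 0.16) and Mrps22 (-1.89, SE 0.16), and E15.5 lung in Mrpl34 (-0.54). Retina at P42 was high in Mrpl49 (1.12), at 173 and 171 TPM, and low in Mrps15 (-1.68). At E15.5 it was high in Mrps33 (0.81) and Mrpl39 (0.55) and low in Mrpl4 (-0.95) and Mrps24 (-0.94). Brain was high in Mrps25 at both stages (0.62 and 0.91) and in Mrpl48 at P42 (1.04). It was low in Mrps28 (-0.99) and Mrpl54 (-0.94) at E15.5 and in Mrpl14 (-1.0) and Mrps35 (-0.80) at P42.

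Relative to the median gene, efficiency differed between tissues for few members, a count that depends on the scale. In E15.5 liver 13 of 78 were higher and 1 lower than in the other tissues, against 12.4% and 8.91% of 7936 genes. Mrps15 led them (2.06, SE 0.19, adjusted p = 2.68e-09), followed by Mrpl42 (1.19, SE 0.21), and Mrpl41 was lower (-0.86, SE 0.26). The same 2 genes had the lowest mRNA in that tissue relative to the others. The mRNA value is subtracted in the efficiency, so these 2 observations are not independent. In P42 retina 9 of 72 were higher and 0 lower (7.34% and 8.06% of 4195 genes), from Mrps21 (1.08, SE 0.27) to Mrpl20 (0.67, SE 0.22). On the deposited scale the retina differences of these 9 genes lay between -0.02 and 0.39. Without centring more members were called, and not always in the same direction. In E15.5 liver the deposited scale gave 30 higher and 0 lower and median-of-ratios scaling 19 and 2. In P42 retina the deposited scale gave 0 and 26 and median-of-ratios scaling 42 and 0. The deposited scale also gave 0 and 75 in E15.5 retina (2 lower when centred) and 38 and 0 in P42 lung (2 higher when centred). Median-of-ratios scaling gave 0 and 36 in P42 heart (3 lower when centred). The median gene itself stood on the deposited scale at 0.48 in E15.5 liver and -0.98 in E15.5 retina. It stood at -0.69 in P42 retina and 0.52 in P42 lung.

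Whether the stage change differed between the tissues was tested with an F test over the 6 tissues on the centred changes. By mRNA 76 of 78 members passed, all but Mrps17 and Mrps25, against 91.0% of 10824 genes. By footprint 43 of 78 passed, against 74.7% of 9161 genes, and in efficiency 5 of 72, against 14.3% of 4013 genes. The 5 were Mrps15, Mrpl42, Mrpl20, Mrps21 and Mrpl30.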

How the data were processed

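The authors deposited transcripts-per-million values (TPM) in 4 tables of 12 libraries, 1 table for each stage and assay. Per the submitters' processing notes, CASAVA 1.8.2, cutadapt 1.8.1, TopHat2 2.0.14, featureCounts 1.6.2 and GRCm38.p6 were used. The annotation release, the strand setting and the gene set over which TPM was totalled are not stated in any source used here. Of the 22055 genes, 22029 were matched to GENCODE M21 for names, coordinates, overlaps and lengths. TPM keeps no depth, so no count test was possible and counting error is unknown.

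From the deposited TPM, log2(TPM + 1) was fitted with limma 3.58.1 (R 4.3.3, trended moderation) over all genes, with tissue by stage groups in 24 libraries (12 residual degrees of freedom), or tissue by stage by assay groups in 48 libraries (24) for the footprint to mRNA ratio. The spread is thus pooled over tissues. Each contrast was reduced by its median over all genes tested. Genes were called at a Benjamini-Hochberg adjusted p below 0.05 over all genes with a size of at least 0.5. A gene needed 1 TPM in 2 libraries and, for stage changes, a mean of 1 TPM in the tissue. Efficiency needed a mean of 5 TPM by RNA-seq at both stages of the tissue, or in all 6 tissues for comparisons between tissues. The fits were run on simulated data with known changes in some genes and an equal shift of all genes. Uneven shifts between stages were not simulated, so that run does not bear on the choice of scale. Python 3.11.15 with numpy 2.4.6, pandas 2.3.3, scipy 1.17.1 and matplotlib 3.10.9 did the rest.

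The members, the lists and the tests were chosen with earlier results of these data known. Members were named by a rule: per tissue the 3 largest called mRNA changes and the 2 largest called efficiency changes in each direction, per stage the 2 largest called mRNA differences of each tissue in each direction, the 5 highest and 5 lowest in RNA-seq level and in footprint to mRNA ratio, and 8 members with particular roles (Mrpl12, Mrpl45, Mrpl58, Mrps18a, Mrps18b, Mrps18c, Mrps30 and Mrps36). Other members, such as Mrpl27, Mrpl19, Mrps17, Mrpl41 and Mrpl20, those shown for their promoter or for their calls across tissues, those in comparisons of efficiency between tissues, and the named genes of companion lists were chosen after their values were seen. Alternatives were pseudocounts of 0.25 and 4, no filter, a stricter filter (5 TPM, and 20 TPM by RNA-seq), 3 other scalings without centring, mitochondrially encoded genes left out, no variance trend, a replicate block, a size minimum of 1 and each library left out. A marker gene of retina and a marker gene of erythroid cells are not reported here and were left out of the marker lists.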

Additional observations from a re-analysis of the deposited data

Results flagged for a closer look

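Whether the stage change differed between the 6 tissues was tested by the F test on centred changes (limma, adjusted p below 0.05). By mRNA 76 of 78 members passed, against 91.0% of all genes tested, by footprint 43 of 78, against 74.7%, and in efficiency 5 of 72, against 14.3%. The mRNA share is close to that of all genes, and for footprints and efficiency the members' shares are below it.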

How the results depend on the processing

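The members' median change was taken as moved when it shifted by more than the spread of the member median between replicates (SD 0.10 by mRNA, 0.11 by footprint and 0.15 in efficiency), and a count when it changed by more than 1.5 times. As reported, the calls summed over the 6 tissues were 250 higher and 47 lower at P42 by mRNA, 32 and 106 by footprint, and 1 and 111 in efficiency. The calls above and below the other tissues were 59 and 34 at E15.5 and 186 and 125 at P42 by mRNA, 76 and 49 at E15.5 and 133 and 79 at P42 by footprint, and 13 and 4 at E15.5 and 11 and 4 at P42 in efficiency. Without the variance trend, which leaves the changes themselves as they are, no summed count moved. Values that did move are given by setting, and unless the setting itself shows it (fewer or more genes tested, another size minimum or pseudocount), the cause was not tested. The length-based centrings were chosen after seeing the data. With a pseudocount of 0.25, the median change of the members was 1.14 in liver and 1.21 in heart by mRNA. With a pseudocount of 4, the median change of the members was 0.70 in liver, 0.79 in kidney, 0.55 in heart, -0.29 in lung and 0.39 in brain by mRNA, and -0.16 in liver, 0.13 in kidney, -0.33 in heart and -0.26 in retina by footprint. Summed calls were 14 higher at P42 by footprint, 84 above the other tissues at P42 by footprint, 44 below the other tissues at P42 by footprint and 9 below the other tissues at P42 by efficiency. With no filter on low values, the median change of the members was 0.46 in liver, 0.58 in kidney, 0.28 in heart, -0.76 in lung, 0.13 in brain and -0.48 in retina by mRNA, then -0.62 in liver, -0.20 in kidney, -0.80 in heart and -1.04 in lung by footprint, then -1.07 in liver, -0.97 in heart, -0.24 in lung, -0.36 in brain and 0.21 in retina by efficiency. Summed calls were 118 higher at P42 by mRNA, 111 lower at P42 by mRNA, 9 higher at P42 by footprint, 194 lower at P42 by footprint and 6 higher at P42 by efficiency. 32 members differed between tissues in efficiency change. With a stricter filter (5 TPM, and 20 TPM by RNA-seq for efficiency), the median change of the members was 1.08 in heart by mRNA, then 0.20 in liver and 0.054 in heart by footprint, then -0.48 in liver and -0.51 in heart by efficiency. Summed over tissues, calls were 49 higher at P42 by footprint and 48 lower at P42 by efficiency. On the deposited scale without centring, the median change of the members was 0.12 in liver, 0.23 in kidney, -0.64 in heart, -1.29 in lung, -0.076 in brain and -0.48 in retina by mRNA, then -0.80 in liver, -0.43 in kidney, -1.21 in heart and -1.05 in lung by footprint, then -1.01 in liver, -0.54 in heart, 0.25 in lung, -0.064 in brain and 0.29 in retina by efficiency. Summed calls were 52 higher at P42 by mRNA, 194 lower at P42 by mRNA, 56 below the other tissues at E15.5 by mRNA, 116 above the other tissues at P42 by mRNA, 8 higher at P42 by footprint, 244 lower at P42 by footprint, 84 below the other tissues at E15.5 by footprint, 80 above the other tissues at P42 by footprint, 25 higher at P42 by efficiency, 31 above the other tissues at E15.5 by efficiency, 77 below the other tissues at E15.5 by efficiency, 42 above the other tissues at P42 by efficiency and 28 below the other tissues at P42 by efficiency. The lung mRNA changes of Mrpl43, Mrpl24 and Mrpl4 turned to -0.31, -0.41 and -0.43. With median-of-ratios scaling without centring, the median change of the members was 1.29 in liver, 1.15 in kidney, 1.32 in heart, -0.026 in lung and 0.65 in brain by mRNA, then 0.28 in liver, 0.49 in kidney, 0.012 in heart, -0.66 in lung and -0.0068 in brain by footprint, then -1.0 in liver and -1.26 in heart by efficiency. Summed over tissues, calls were 98 higher at P42 by footprint, 142 below the other tissues at P42 by footprint, 4 higher at P42 by efficiency, 263 lower at P42 by efficiency, 20 above the other tissues at E15.5 by efficiency, 19 below the other tissues at E15.5 by efficiency, 55 above the other tissues at P42 by efficiency and 53 below the other tissues at P42 by efficiency. With the listed genes at an equal sum and no centring, the median change of the members was -0.27 in liver, -0.26 in kidney, -0.83 in heart, -1.40 in lung, -0.13 in brain and -0.50 in retina by mRNA, then -0.68 in liver, -0.51 in kidney, -0.58 in heart, -1.58 in lung and -0.34 in brain by footprint, then -0.46 in liver, -0.28 in kidney, 0.31 in heart, -0.20 in lung, -0.19 in brain and 0.21 in retina by efficiency. Summed over tissues, calls were 26 higher at P42 by mRNA, 244 lower at P42 by mRNA, 11 higher at P42 by footprint, 257 lower at P42 by footprint and 54 higher at P42 by efficiency. The lung mRNA changes of Mrpl43, Mrpl24 and Mrpl4 turned to -0.41, -0.52 and -0.54. With mitochondrially encoded genes left out, the median change of the members was 1.16 in heart by mRNA, and -1.0 in heart by efficiency. With a size minimum of 1, summed calls were 128 higher at P42 by mRNA, 9 lower at P42 by mRNA, 19 above the other tissues at E15.5 by mRNA, 3 below the other tissues at E15.5 by mRNA, 70 above the other tissues at P42 by mRNA, 64 below the other tissues at P42 by mRNA, 3 higher at P42 by footprint, 38 lower at P42 by footprint, 26 above the other tissues at E15.5 by footprint, 10 below the other tissues at E15.5 by footprint, 34 above the other tissues at P42 by footprint, 18 below the other tissues at P42 by footprint, 3 above the other tissues at E15.5 by efficiency, 0 below the other tissues at E15.5 by efficiency, 2 above the other tissues at P42 by efficiency and 2 below the other tissues at P42 by efficiency. With centring within deciles of coding length, the median change of the members was 0.47 in liver, 0.68 in kidney, 0.71 in heart, -0.41 in lung and 0.22 in brain by mRNA, then 0.012 in brain by footprint, then -0.32 in liver, -0.31 in kidney, -0.49 in heart, -0.22 in lung and -0.21 in brain by efficiency. Summed over tissues, calls were 159 higher at P42 by mRNA, 72 lower at P42 by mRNA, 4 higher at P42 by efficiency and 29 lower at P42 by efficiency. With centring within deciles of exon length, the median change of the members was 0.70 in liver, 0.74 in kidney, 0.75 in heart, -0.39 in lung and 0.31 in brain by mRNA, and -0.44 in liver, -0.55 in heart, -0.26 in lung and -0.33 in brain by efficiency. Summed over tissues, calls were 3 higher at P42 by efficiency and 57 lower at P42 by efficiency.

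Leaving out 1 library at a time, with the lone library of a group assumed to vary like the other groups, moved the median mRNA change to between -0.40 and -0.13 in retina and between 0.87 and 1.19 in kidney, and the median footprint change to between -0.26 and 0.0056 in brain, -0.36 and -0.037 in heart, and -0.068 and 0.0698 in liver. The summed count higher in efficiency ran from 0 to 3. Of 192 single-gene stage changes recomputed this way, 169 stayed on their side of the threshold, 23 lost the call and 0 changed direction. Same-numbered samples deviated together in some tissues and oppositely in others (correlations from -0.49 to 0.42 over genes). The value of -0.49 compares E15.5 with P42 in retina RNA-seq. Between RNA-seq and Ribo-seq of the same tissue and stage, the correlations ran from -0.28 in E15.5 retina to 0.42 in P42 liver. Each group gives only the difference between its replicates, so these correlations cannot decide whether same-numbered libraries share an animal. The libraries were not treated as paired in the main fits. With a replicate block the summed calls were 248 higher and 47 lower by mRNA, 28 and 104 by footprint, and 1 and 128 in efficiency. In this balanced design a block cannot move the medians. The depth behind the TPM values is unknown, so no counting error can be given for low footprint values.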
